A study of Ovis aries with 6 samples.

Results

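The genes described here are 8 globin and erythroid genes measured in the fat that surrounds the kidney (perirenal adipose tissue) of sheep lambs and fetuses. They were taken by name from a table of 24390 genes, and each of the 8 names stands in it once. They are the hemoglobin subunit HBBB, the hemoglobin chaperone AHSP, the heme enzyme ALAS2, the erythroid nuclear protein HEMGN, the transcription factor GATA1, the erythropoietin receptor EPOR, myoglobin (MB) and cytoglobin (CYGB). The names were not chosen by a threshold on these data, but earlier results of these data were known when they were chosen. The tissue came from 3 lambs and 3 fetuses of a pure-bred Merino flock, all wild type and none treated per the labels, and each library is a separate animal. The labels give 3 ages for the lambs (80 days after birth, 89 ± 7 days and 12 weeks), and the fetuses were 132 ± 1 days post conception in a pregnancy of 150 days. VEH stands in the lamb titles without an explanation, and a vehicle treatment could not be told apart from stage.

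Red cells form from nucleated erythroblasts under the control of erythropoietin and of GATA1, fill with hemoglobin made of alpha-type and beta-type globin chains around heme, and lose their nucleus. Young red cells keep globin mRNA for a time after they enter the blood, and blood is part of any piece of fat that is frozen whole. In sheep the beta-type chain of hemoglobin switches from a fetal to an adult form around birth. Myoglobin stores oxygen in skeletal and heart muscle, and cytoglobin is a globin of fibroblasts and other connective tissue cells.

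The lamb libraries held between 15907128 and 17263780 counts and the fetal libraries between 17535892 and 19150428. Values per library are read counts, or counts scaled to a common library size by TMM factors (CPM), a scaling that sets most genes level. Genes of the mitochondrial genome took 7.37 to 8.29% of counts in lambs and 27.5 to 40.7% in fetuses, so library totals alone shift all other genes. Differences are log2, lamb minus fetal, ± SE, and adjusted p is from edgeR's quasi-likelihood test with Benjamini-Hochberg adjustment over the 13624 genes that passed the filter on low counts. Called means an adjusted p below 0.05. The fat cell genes ADIPOQ, FABP4 and PLIN1 were present in every library. FABP4, a fatty acid carrier of fat cells, was higher in lambs by 2.83 ± 0.27, and UCP1, the heat-producing protein of brown fat, was lower by a log2 difference of -1.78 ± 0.27.

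Of the 8 genes, 6 passed the filter and were tested, and AHSP and EPOR were not. HBBB, HEMGN, MB and ALAS2 fell in lambs, 4 of 6, and none rose, by edgeR at an adjusted or an unadjusted p below 0.05. HEMGN and MB passed the filter through their fetal counts alone, so they could only come out lower. The same holds for other tested genes below with counts near 0 in all lamb libraries. Among all genes tested, 22.7% were called lower in lambs, 22.0% higher and 44.7% in either direction. HBBB, HEMGN, MB, ALAS2, GATA1 and the untested AHSP had every lamb library below every fetal library. That pattern held for 29.5% of all genes tested, and the opposite one for 28.2%. HBBB, HEMGN and MB fell by more than 4 on the log2 scale, which 132 of the 13624 genes did (0.969%). How many of the 132 passed the filter through fetal counts alone was not counted. Called genes over the whole table divided 50.7% lower and 49.3% higher, and with library totals as the only scaling they divided 20.7% and 79.3%, with the median of all genes at 0.46 in place of -0.01. None of the 8 overlaps another gene of the table, and ALAS2 and EPOR have a neighbour within 2000 bases.

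**Figure D1:**
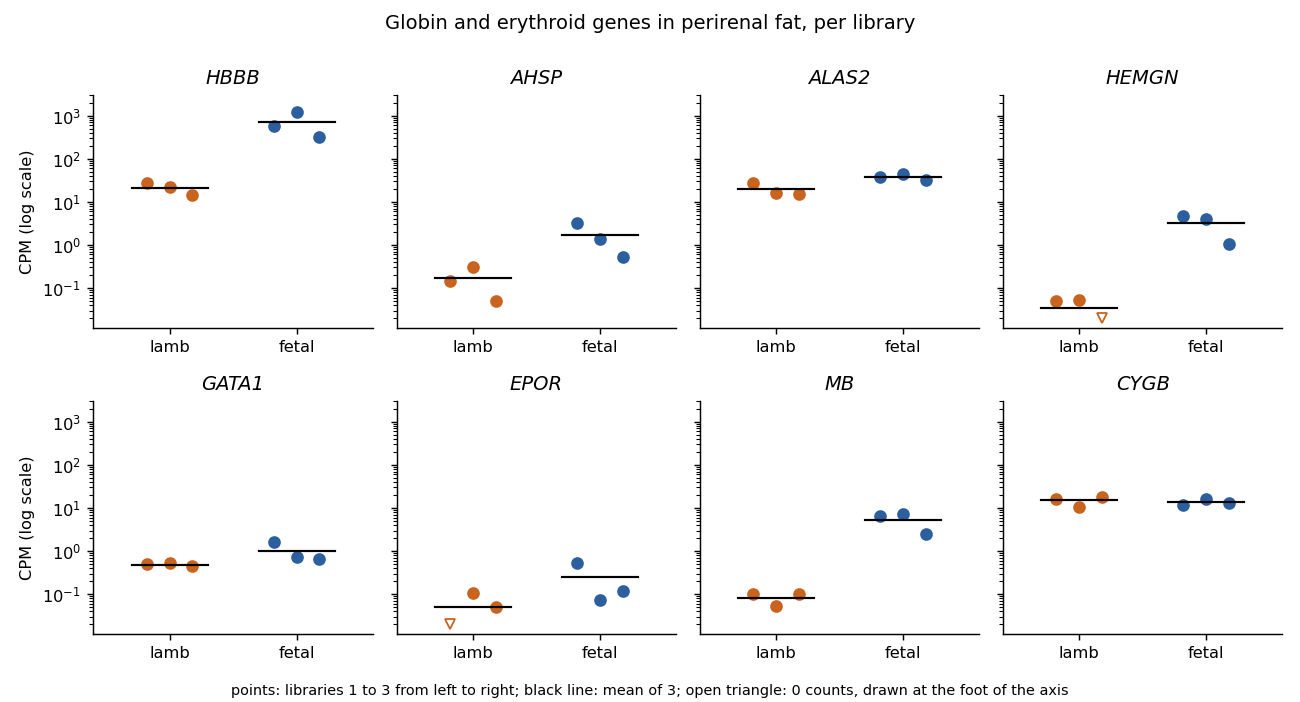
CPM of each of the 8 genes in the 3 lamb libraries (orange) and the 3 fetal libraries (blue), on a log axis shared by all panels; points are libraries, black lines are means and open triangles are libraries with 0 counts. HBBB, HEMGN and MB have lamb means of 21.3, 0.034 and 0.084 CPM against fetal means of 701, 3.26 and 5.32 CPM, while the stages overlap for CYGB and EPOR.

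HBBB, a beta-type globin chain of hemoglobin, lies on chromosome 15 at 47565510 to 47567511 of the assembly Oar v3.1. It had 548, 429 and 294 counts in lambs, against 9443, 16550 and 5386 counts in fetuses. Every lamb library lay far below every fetal library, and the fetal libraries spread more widely, with 3.79 times between the highest and the lowest, against 1.84 times in lambs. The means were 21.3 ± 6.24 CPM in lambs and 701 ± 463 CPM in fetuses (SD, n = 3 each). The difference was -5.04 ± 0.54 (adjusted p = 3.69e-04), a 32.8-fold lower level in lambs. In bulk tissue, a change in the number of cells that hold an RNA and a change in its level per cell cannot be told apart. This applies here and for the other genes below. Which cells held the HBBB RNA was not tested. The HBBB difference lay between -5.39 and -4.37 over 15 alternative settings, and it was called in each of them. Its lamb counts sum to 1271, so the lamb level was measured and was not 0.

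Other genes of the globin loci were then read from the table. HBM, an alpha-type globin of low expression on chromosome 24 at 147873 to 150952, had 1, 2 and 2 counts in lambs, against 63, 47 and 34 counts in fetuses. Its stages did not overlap, and it fell by 5.08 ± 0.47 on the log2 scale (adjusted p = 2.08e-04). HBQ1, NGB and ADGB, a theta globin, neuroglobin and androglobin, had at most 4 counts in any library and were not tested.

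A pair of genes with an identifier and no name, with a fetal mean above 1 CPM, stand beside these globins. They were singled out after their values were seen and by their fetal level, so their adjusted p values below are description only. Other unnamed genes lie nearby. ENSOARG00000019130 and ENSOARG00000019144, near HBBB, had at most 4 counts in any library. ENSOARG00000011198, beyond HBQ1 on chromosome 24, was higher in lambs by 1.52 ± 0.11. ENSOARG00000019174, on chromosome 15 at 47609516 to 47611599 between HBBB and the olfactory receptor gene OR51V1, had 86, 27 and 22 counts in lambs, against 13395, 9309 and 14298 counts in fetuses. ENSOARG00000010944, on chromosome 24 at 154448 to 155145 between HBM and HBQ1, had 305, 236 and 247 counts in lambs, against 7633, 7492 and 6715 counts in fetuses. Neither had an overlap between the stages. The first fell by 8.43 ± 0.55 (adjusted p = 6.63e-05) and the second by 5.15 ± 0.19 (adjusted p = 1.93e-05), both on the log2 scale. Near-identical globin copies can share reads, and the assignment of reads that match several places is not stated in the sources, so the division of counts among them is uncertain.

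The make-up of the counts at the chromosome 15 locus differed between the stages. HBBB made up 86.4% (95% Wilson interval 83.5 to 88.9), 94.1% (91.5 to 95.9) and 93.0% (89.7 to 95.4) of the counts of HBBB and ENSOARG00000019174 together in lambs. In fetuses it made up 41.3% (40.7 to 42.0), 64.0% (63.4 to 64.6) and 27.4% (26.7 to 28.0). The lamb shares all lay above the fetal shares, and the intervals cover counting error only. Among the fetuses the identifier and HBBB ran in opposite order: fetal library 2 was highest for HBBB and lowest for ENSOARG00000019174, and fetal library 3 the reverse. Their sum was 31.3, 23.7 and 15.8 CPM in lambs, against 1365, 1902 and 1175 CPM in fetuses, where it spread less than HBBB alone. The counts of the pair on chromosome 15 were 2.08, 1.93 and 1.28 times those of ENSOARG00000010944 in lambs, against 2.99, 3.45 and 2.93 times in fetuses. The 3 genes together took 0.00326 to 0.00545% of all counts in lambs, against 0.151 to 0.177% in fetuses.

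**Figure D2:**
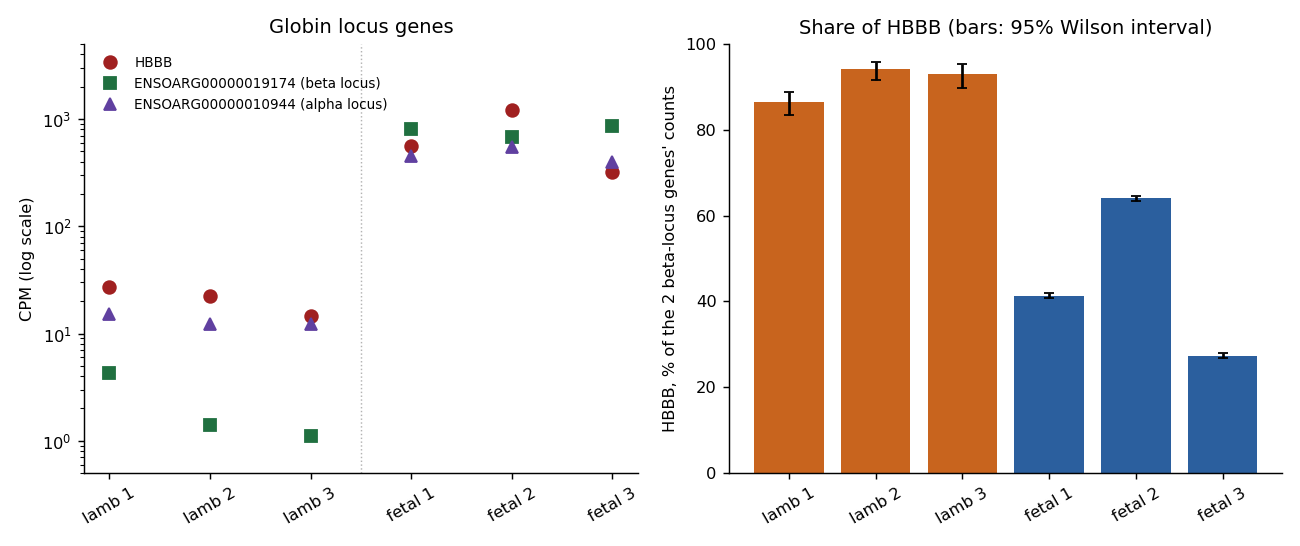
Left, CPM on a log axis of HBBB and of the unnamed genes at the beta and alpha globin loci in each library; right, the share of HBBB in the counts of the 2 beta-locus genes, with 95% Wilson intervals. The share lies between 86.4 and 94.1% in the lamb libraries (orange) and between 27.4 and 64.0% in the fetal libraries (blue).

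AHSP, the chaperone that binds free alpha globin until it pairs with a beta chain, lies on chromosome 24 at 27538896 to 27539425. It had 3, 6 and 1 counts in lambs, against 53, 19 and 9 counts in fetuses, and every lamb library was below every fetal library in CPM. It did not pass the filter. With no filter beyond 1 count, its difference was -3.27 ± 0.80 (adjusted p = 0.0140, edgeR). From the summed counts the level was 10.2 times lower in lambs, with a 95% interval of 5.29 to 22.2 that covers counting error only. Fetal library 1 alone held 53 of its 81 fetal counts.

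ALAS2, the erythroid form of the first enzyme of heme synthesis, lies on chromosome X at 47828609 to 47849887. It had 567, 307 and 297 counts in lambs, against 637, 615 and 530 counts in fetuses. In CPM these are 28.0, 15.9 and 14.8 in lambs, against 38.1, 45.2 and 31.6 in fetuses, so that lamb library 1 came close to fetal library 3 without reaching it. The difference was -0.97 ± 0.26 (adjusted p = 0.0190), a 1.95-fold lower level in lambs. The call was lost with library totals as the only scaling (-0.47, adjusted p = 0.123). It was also lost without lamb library 2 (-0.83, adjusted p = 0.0606), without lamb library 3 (-0.80, adjusted p = 0.0528) and without fetal library 2 (-0.83, adjusted p = 0.0681). The gene next to it, APEX2, begins 1675 bases away and had a difference of 0.36 (adjusted p = 0.216). PFKFB1, 19230 bases away, was higher in lambs by 1.73 ± 0.22.

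Of 13 other genes of heme synthesis and heme transport, 8 fell in lambs and 5 missed the threshold, with a median difference of -0.67 against -0.01 over all genes tested. None rose by edgeR, at an unadjusted p below 0.05, by DESeq2 or by limma-voom. ALAD, the second enzyme of the pathway, had 1760, 977 and 1729 counts in lambs, against 2882, 2586 and 3376 counts in fetuses. It fell by 1.33 ± 0.22 on the log2 scale (adjusted p = 0.00217). The porphyrin transporter gene ABCB6 and CPOX, an enzyme late in the pathway, differed by -1.32 ± 0.15 and -1.14 ± 0.25. ALAS1, the form of the first enzyme used by all tissues and named after its values were seen, had 2553, 1956 and 2237 counts in lambs, against 2552, 2757 and 4109 counts in fetuses. It differed by -0.82 ± 0.19 (adjusted p = 0.00995), close in size to ALAS2. With library totals alone 4 of the 13 genes were lower. The mitochondrial share of counts was also lower in lambs, and its part in these differences was not tested.

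**Figure D3:**
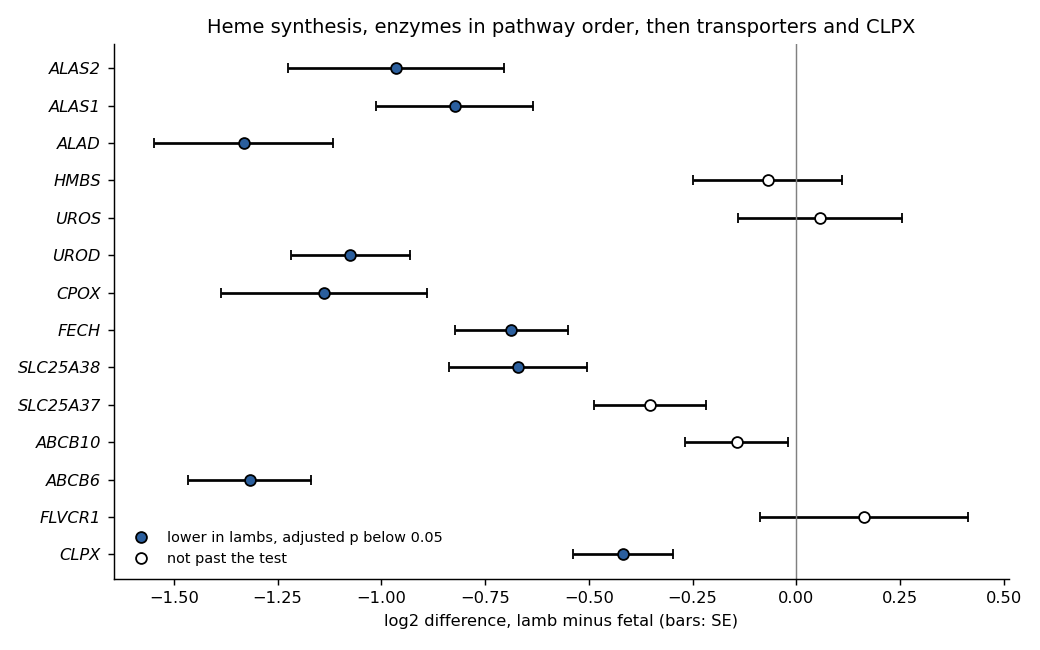
Log2 difference, lamb minus fetal, of ALAS2 and 13 other tested genes of heme synthesis and transport; points are estimates, bars are SE, and filled points have an adjusted p below 0.05. ALAS2 at -0.97 lies among the other called genes, which run from -1.33 for ALAD to -0.42 for CLPX.

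HEMGN, a nuclear protein of erythroid progenitors, lies on chromosome 2 at 49440412 to 49451181. It had 1, 1 and 0 counts in lambs, against 78, 55 and 18 counts in fetuses, with no overlap between the stages. The lamb level was near 0 in all 3 libraries, and the fetal libraries ran over 4.34 times between lowest and highest. The difference was -6.33 ± 0.87 (adjusted p = 0.00106). With only 2 lamb counts in all, the ratio of the summed counts was 95.4, with a 95% interval of 26.0 to 795 for counting error.

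GATA1, the transcription factor that drives red cell, megakaryocyte and mast cell genes, lies on chromosome X at 53001682 to 53004546. It had 10, 10 and 9 counts in lambs, against 27, 10 and 11 counts in fetuses. In CPM the lamb libraries (0.494, 0.519 and 0.450) all lay below the fetal ones (1.61, 0.736 and 0.656), and fetal library 1 stood well above the other fetuses. The difference of -1.04 ± 0.46 did not pass the test (adjusted p = 0.101), nor did it under any of 14 alternatives. Without fetal library 1 it was -0.51.

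Of 12 other tested erythroid transcription factors and cofactors, 2 fell, 1 rose and 9 did not pass the test, with a median difference of 0.12. NFE2, a transcription factor of red cell precursors and megakaryocytes, had 9, 9 and 7 counts in lambs, against 35, 24 and 31 counts in fetuses, and differed by -2.16 ± 0.32. LMO2, a bridging protein of the GATA1 complex that endothelium also uses, differed by -1.20 ± 0.20. CBFA2T3, a corepressor, was higher in lambs by 0.61 ± 0.19, a call that was lost without lamb library 1 (0.57, adjusted p = 0.0789), without lamb library 3 (0.53, adjusted p = 0.0839), without fetal library 1 (0.52, adjusted p = 0.100) and without fetal library 2 (0.53, adjusted p = 0.0951). KLF1, the activator of the adult beta globin gene, had 0, 0 and 1 counts in lambs, against 9, 4 and 2 counts in fetuses, and did not pass the filter. With no filter beyond 1 count its difference was -3.75 ± 1.13 (adjusted p = 0.0326, edgeR). Its summed counts give a level 18.96 times lower in lambs, with an interval of 2.92 to 798 for counting error.

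EPOR, the receptor for erythropoietin, lies on chromosome 5 at 13444130 to 13448638. It had 0, 2 and 1 counts in lambs, against 9, 1 and 2 counts in fetuses. The stages overlapped, and fetal library 1 held 9 of the 12 fetal counts. It did not pass the filter, and with no filter beyond 1 count its difference was -2.14 ± 1.11 (adjusted p = 0.181, edgeR). The summed counts give a level 5.06 times lower in lambs, with an interval of 1.36 to 27.9 for counting error. RGL3 lies 561 bases from EPOR, with 83, 92 and 137 counts in lambs, against 94, 148 and 182 counts in fetuses. EPO, the hormone itself, had 0 counts in all 6 libraries, which allows up to 0.148 to 0.156 CPM in a lamb library and 0.179 to 0.221 CPM in a fetal one.

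Among 16 tested genes of erythropoietin signalling, 6 fell, 6 rose and 4 did not pass the test, with a median of -0.01. CISH, a feedback inhibitor induced by STAT5, had 144, 268 and 226 counts in lambs, against 892, 544 and 962 counts in fetuses. It fell by 2.22 ± 0.26 on the log2 scale. STAT5A, the signal transducer, and PIM1, a kinase induced by it, differed by -1.61 ± 0.26 and -1.55 ± 0.16. BCL2L1, which protects erythroblasts from cell death, was higher in lambs by 1.94 ± 0.22. These genes also serve other cytokine receptors. The count of genes that rose was 3 with the replicate number as a block, without fetal library 1 and without fetal library 2. Of 8 genes of oxygen sensing, 4 rose, 2 fell and 2 did not pass the test. HIF1A, the oxygen-regulated transcription factor, was higher in lambs by 2.72 ± 0.18, and EGLN3, an oxygen-dependent hydroxylase that marks it for decay, was lower (-2.16 ± 0.33).

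Of 13 tested genes of the red cell membrane and skeleton, 4 fell, 1 rose and 8 did not pass the test, with a median of -0.09. RHAG, the Rh-associated membrane protein, had 2, 0 and 0 counts in lambs, against 45, 35 and 21 counts in fetuses (-5.74 ± 0.79). SLC4A1, the band 3 anion exchanger, had 24, 18 and 19 counts in lambs, against 182, 117 and 76 counts in fetuses (-2.96 ± 0.37). Both had no overlap between the stages, and both were lowest among the fetuses in fetal library 3, as was HBBB. ANK1, the ankyrin of the red cell skeleton, differed by -1.46 ± 0.21, and DMTN, a membrane skeleton protein, was higher in lambs by 2.86 ± 0.26.

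Of 13 tested genes of red cell enzymes and maturation, 6 fell, 1 rose and 6 did not pass the test, with a median of -0.89. TRIM58, a ubiquitin ligase of late erythroblasts, had 0 counts in every lamb library, against 27, 27 and 16 counts in fetuses. Set against 3 counts over the lamb group, its level was 29.5-fold lower in lambs, an approximate bound and not an estimate. The exact 95% lower limit was 23.4-fold, for counting error only. TRIM10, a related erythroid protein, had 1, 3 and 0 counts in lambs, against 39, 37 and 42 counts in fetuses (-5.08 ± 0.61). CA2, a carbonic anhydrase of red cells and other tissues, differed by -1.71 ± 0.24, and CAT, the enzyme catalase, was higher in lambs by 1.30 ± 0.19. CA1, the more red-cell-specific carbonic anhydrase, had 1, 0 and 0 counts in lambs, against 22, 4 and 3 counts in fetuses, most of them in fetal library 1, and was not tested.

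**Figure D4:**
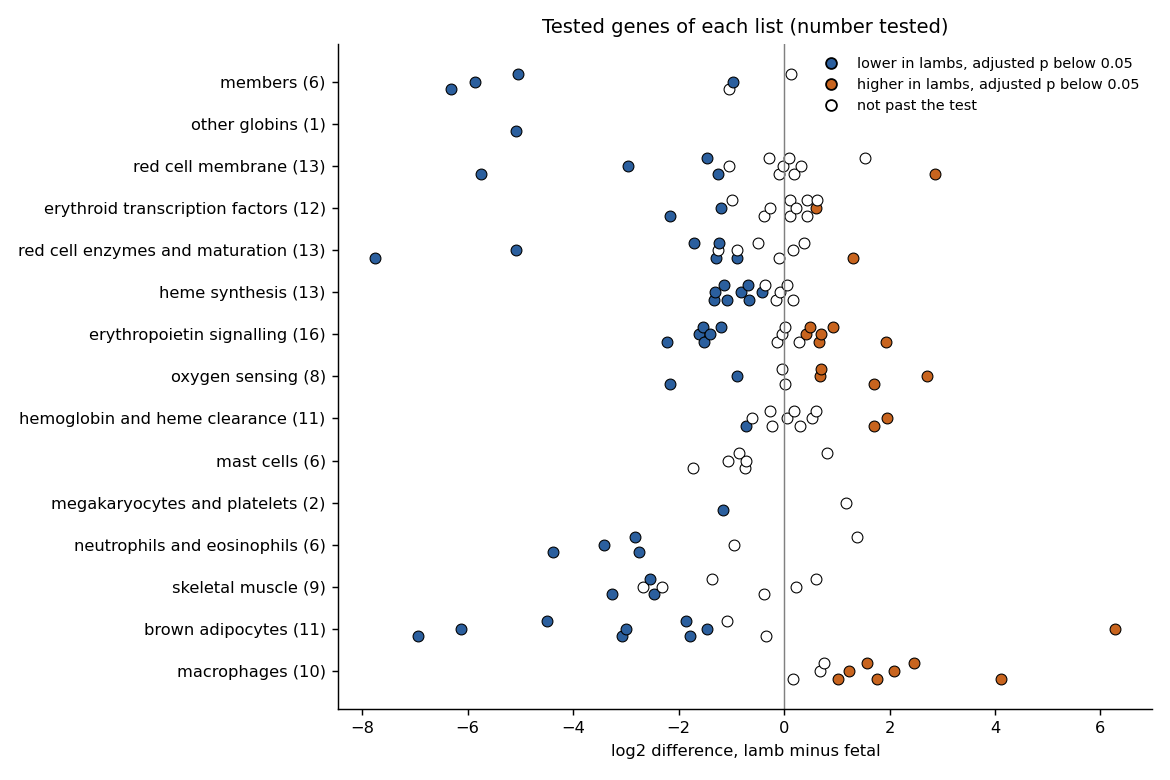
Log2 difference, lamb minus fetal, of the tested genes of each list, with the number tested in parentheses; blue points are lower in lambs and orange points higher in lambs at an adjusted p below 0.05, and open points did not pass. Genes below -4 stand in the rows of the 8 genes, other globins, red cell membrane, red cell enzymes, neutrophils and brown adipocytes, while 7 of the 10 macrophage genes are higher in lambs.

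MB lies on chromosome 3 at 178866680 to 178877963. It had 2, 1 and 2 counts in lambs, against 108, 96 and 41 counts in fetuses. The lamb libraries were all near 0 and the fetal libraries all well above them, with means of 0.084 ± 0.027 CPM in lambs and 5.32 ± 2.51 CPM in fetuses (SD, n = 3 each). The difference was -5.87 ± 0.59 (adjusted p = 2.87e-04), and the summed counts give a level 61.9 times lower in lambs, with an interval of 26.2 to 192 for counting error.

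Skeletal muscle genes were read beside MB, as those of the tissue richest in myoglobin. Of 9 tested, 3 fell and 6 did not pass the test, with a median of -2.32, and 8 more were too low to test. Without fetal library 1 the median was -0.09 and 2 genes fell. The median was -0.998 by limma-voom and -1.27 in the fit blocked on replicate number, again with 2 that fell. The summed level of all 17 in the table was 30.3 to 34.9 CPM in lambs, against 179, 46.3 and 65.8 CPM in fetuses. Fetal library 1 stood apart. MYL1, a myosin light chain, had 0 counts in all 3 lamb libraries, against 81, 0 and 0 counts in the fetal ones. MYLPF, another light chain, had 0, 0 and 2 counts in lambs, against 166, 1 and 2 counts in fetuses.

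Fetal library 2 held 96 counts of MB. Its muscle gene counts ran from 0 for MYL1 and MYH1 to 233 for CKM, with 23 for ACTA1 and 177 for NEB. Without fetal library 1 the MB difference was -5.71 (adjusted p = 0.00117). CKM, the muscle creatine kinase, had 119, 139 and 181 counts in lambs, against 1165, 233 and 719 counts in fetuses (-2.55 ± 0.47). TNNT1, the slow muscle troponin T, had 4, 10 and 11 counts in lambs, against 89, 61 and 41 counts in fetuses (-3.26 ± 0.47). Its order over the fetuses was that of MB in counts but not in CPM. In CPM the fetal libraries had 5.32, 4.49 and 2.45 for TNNT1 and 6.46, 7.06 and 2.45 for MB. Of 11 tested brown fat genes, 8 fell in lambs, 1 rose and 2 did not pass the test, with a median of -1.86 over the 11. COX7A1, a respiratory chain subunit of muscle and brown fat, had 63, 58 and 49 counts in lambs, against 2967, 3584 and 2713 counts in fetuses (-6.13 ± 0.26), and KCNK3, a potassium channel, was higher in lambs by 6.28 ± 0.16. The part of muscle and of brown fat genes in the MB difference was not tested.

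**Figure D5:**
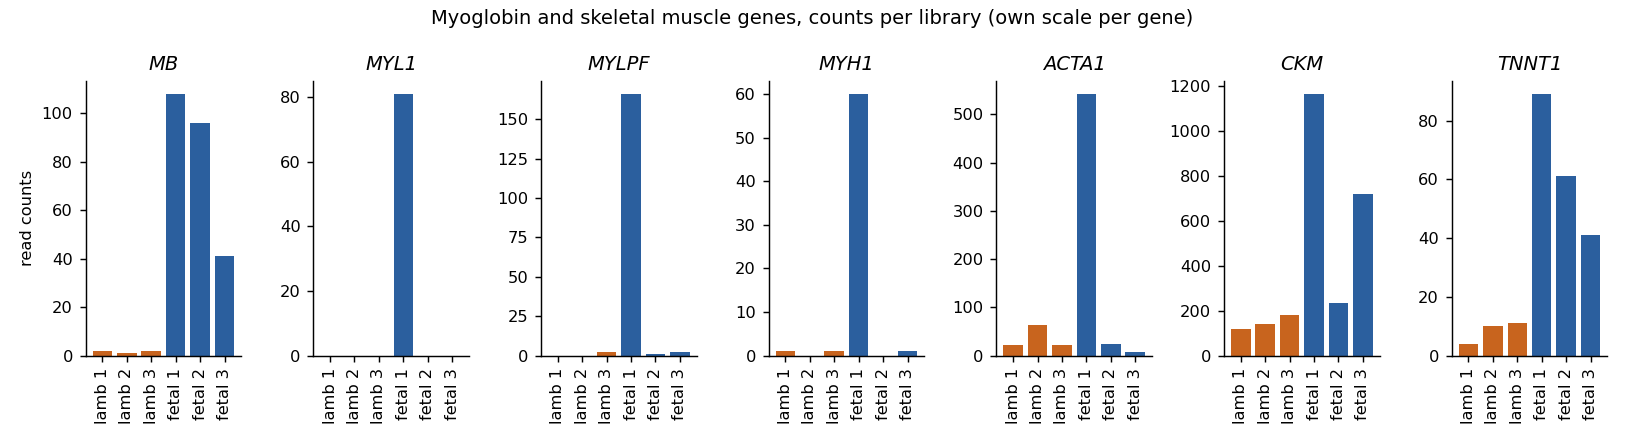
Read counts per library of MB and 6 skeletal muscle genes, each on its own linear axis from 0; lamb libraries are orange and fetal libraries blue. MYL1, MYLPF, MYH1 and ACTA1 are high in fetal library 1 alone, whereas MB has 108, 96 and 41 counts and TNNT1 89, 61 and 41 counts in the 3 fetal libraries.

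CYGB lies on chromosome 11 at 54230904 to 54233731. It had 324, 208 and 365 counts in lambs, against 195, 224 and 217 counts in fetuses. In CPM the stages overlapped, at 16.01, 10.8 and 18.2 in lambs, against 11.7, 16.5 and 13.0 in fetuses. The means were 15.0 ± 3.82 CPM in lambs and 13.7 ± 2.495 CPM in fetuses (SD, n = 3 each), and the difference of 0.14 ± 0.22 did not pass the test (adjusted p = 0.648). It was -0.028 without lamb library 3, and with library totals as the only scaling CYGB was called higher in lambs (0.62, adjusted p = 0.0344). Of 10 fibroblast genes 5 rose in lambs and the others missed the threshold. With 1 library left out, 3 rose without fetal library 3 and 7 without fetal library 1, while 3 fell without fetal library 2 and 1 without lamb library 2. DESeq2 also called 1 lower. DPT, a matrix protein, was higher in lambs by 3.50 ± 0.36.

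The ratio of a pair of genes within a library does not depend on scaling between libraries. Of 6 pairs planned, 4 had counts above 0 in every library. HBBB counts were 0.966, 1.40 and 0.990 times those of ALAS2 in lambs, against 14.8, 26.9 and 10.2 times in fetuses. The difference of the log2 ratios was -3.86, with p = 0.1 by a two-sided exact permutation test, the smallest p that 3 against 3 allows, and 0.2 after adjustment over the 4 pairs. HBBB and ALAS2 thus came out near parity in counts in each lamb and far apart in each fetus, without overlap. MB over CYGB had mean log2 ratios of -7.52 ± 0.18 in lambs and -1.49 ± 0.81 in fetuses (SD, n = 3 each; exact permutation p = 0.1, adjusted 0.2). For HBBB over AHSP (-1.53, exact permutation p = 0.3) and MB over HBBB (-1.04, exact permutation p = 0.2, adjusted 0.267) the difference between the stages was smaller.

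Levels of different genes can be set side by side per length, for which the authors' stage means in RPKM (reads scaled by gene length and library size) were used, without an error. In lambs the order of mean RPKM was CYGB at 33.9, HBBB at 18.9, ALAS2 at 10.4, AHSP at 0.531, GATA1 at 0.440, MB at 0.233, HEMGN at 0.104 and EPOR at 0.0492. In fetuses it was HBBB at 424, CYGB at 23.1, ALAS2 at 14.1, MB at 4.30, AHSP at 3.78, HEMGN at 1.76, GATA1 at 0.616 and EPOR at 0.163. HBBB thus stood above CYGB in fetuses and below it in lambs. The mean RPKM of ENSOARG00000019174 was 1.73 in lambs and 443 in fetuses, and that of ENSOARG00000010944 was 29.7 in lambs and 742 in fetuses. These means are not TMM scaled, and those of the lowest genes do not follow from the count columns alone: TRIM58 has 0.0202 RPKM in lambs with 0 counts there.

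The order of the fetal libraries in CPM was only partly shared by the 8 genes. Fetal library 3 had the lowest CPM for 6 of the 8, all but CYGB and EPOR. For GATA1 this came from the scaling, as its counts were 10 in fetal library 2 and 11 in fetal library 3. HEMGN, AHSP, GATA1 and EPOR were highest in fetal library 1, and HBBB, ALAS2, MB and CYGB in fetal library 2. The spread was 1.41 times between the highest and lowest fetus for CYGB, 1.43 for ALAS2, 2.46 for GATA1 and 2.89 for MB, and it reached 5.90 for AHSP and 7.31 for EPOR, both at low counts. Among the lambs, library 3 had the lowest CPM for HBBB, HEMGN, ALAS2, AHSP and GATA1. The share of all genes lowest in fetal library 3 or in lamb library 3 was not computed. Whether either order is particular to these genes is therefore not known.

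Over the 6 libraries the genes whose log2 CPM profile was nearest to that of HBBB, by root mean square distance among 11193 named genes at 1 CPM or more, were IGFN1 (0.170), H-FABP (0.373) and MB (0.431). H-FABP, the fatty acid carrier of heart and other oxidative tissue, had 33, 23 and 16 counts in lambs, against 929, 1084 and 618 counts in fetuses. The genes nearest to MB were TMPRSS4 (0.301), CRISP3 (0.340) and HEMGN (0.370). CRISP3 had 0 counts in all lamb libraries, against 45, 30 and 22 counts in fetuses. HBBB, MB and the genes nearest to them all had a difference below -4 in the main fit, as did 0.969% of all genes tested. All 6 distances rest mainly on this step between the stages. The prior count of 2 added before the log shortens this step for genes near 0 in lambs. IGFN1 had 1, 1 and 0 counts in lambs, against 49, 110 and 33 counts in fetuses. Its difference in the main fit was -6.73 ± 0.89, against -5.04 for HBBB, so its small distance rests in part on that setting.

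Genes of other blood-borne cells were read beside these results. Of 6 tested neutrophil and eosinophil genes 4 fell in lambs, with a median of -2.80. None rose in the main fit, but 1 was called higher by DESeq2 and 1 with library totals alone. LTF, from the same list, had 421, 92 and 144 counts in lambs, against 60, 24 and 119 counts in fetuses. Its difference of 1.38 ± 0.64 missed the threshold (adjusted p = 0.116), and its stages overlapped in CPM. MPO, the myeloperoxidase of neutrophil precursors, had 1, 11 and 0 counts in lambs, against 63, 25 and 125 counts in fetuses (-4.38 ± 0.97). Its highest fetal library was fetal library 3, where HBBB and HEMGN were lowest. None of 6 tested mast cell genes passed the test by edgeR, while 1 was lower at an unadjusted p below 0.05, 1 by DESeq2, 1 by limma-voom, and 1 by edgeR without lamb library 2 or without fetal library 2. Their summed level was 9.04 to 16.4 CPM in lambs and 7.14 to 19.1 CPM in fetuses. Of 10 macrophage genes 7 rose. Among 11 tested loci of hemoglobin and heme clearance, 1 fell, 2 rose and 8 did not pass the test. The one that fell, HMOX2, a heme oxygenase, lost its call without fetal library 2 (-0.54, adjusted p = 0.0640), and 2 fell without lamb library 1 or without lamb library 3. CD163, the macrophage receptor for hemoglobin bound to haptoglobin, had 1298, 1294 and 2489 counts in lambs, against 452, 234 and 563 counts in fetuses (1.71 ± 0.33).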

How the data were processed

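RNA of 3 lamb and 3 fetal samples was sequenced as single-end reads per the labels. Per the series' design text, the authors placed reads on the Ensembl genes (release 74) of Oar v3.1 with CLC Genomics Workbench 7.0. Its handling of multiply mapped reads and of strand is not given in those sources. The deposited table gives whole-number read counts per gene and library, and the authors' RPKM as a mean per stage, used for description only. The 12 per-library RPKM columns were not used, because their headers repeat a sample name, and a second, prefiltered table and the authors' own comparison were not used either.

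The fit used edgeR 4.0.16 under R 4.3.3, with filterByExpr, TMM and the quasi-likelihood F test without covariates. SE is the size of the log2 difference over the root of F. Alternatives used DESeq2 1.42.0 and limma 3.58.1. Intervals of count ratios are exact binomial intervals at 95%. A stage with 0 counts was set to 3 counts in all, which makes the fold an approximate bound. That bound leaves out the counting error of the other stage and the spread between animals.

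The 8 genes and the gene lists were chosen with earlier results of these data known. From each list the text names up to 3 called genes with the largest difference in the main direction and 1 in the other, at 1 CPM or more in the higher stage. For HBBB and MB it also names the 3 genes nearest in log2 CPM (prior count 2). Other named genes were added after their values were seen. Promoter motifs were not analysed here. A gene of the heme list is not reported here.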

Additional observations from a re-analysis of the deposited data

How the results depend on the processing

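The 4 calls among the 8 genes were the same 4 (HBBB, HEMGN, MB and ALAS2) with DESeq2 size factors, upper quartile factors, no mitochondrial genes, the DESeq2 Wald test and limma-voom. With at least 5 CPM in 3 libraries 2 were called, HBBB and ALAS2, because HEMGN, MB and GATA1 were then not tested. With no filter beyond 1 count AHSP was the fifth. With library totals alone CYGB was called and ALAS2 was not. Leaving out each library in turn gave 3 to 5 calls among the members and 4798 to 5654 over all genes, against 6095. HBBB, HEMGN and MB were called each time, with HBBB between -5.39 and -4.37, HEMGN between -6.75 and -5.82 and MB between -6.22 and -5.62. With library totals alone 1459 genes were called lower and 5598 higher. Without 1 library, the log2 ratio differences lay between -4.18 and -3.48 for HBBB over ALAS2, -2.20 and -0.97 for HBBB over AHSP, -6.48 and -5.70 for MB over CYGB, and -1.45 and -0.68 for MB over HBBB.

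The sign turned for CYGB, which lay between -0.028 and 0.33 with 1 library left out. It also turned for the fat cell genes LEP (0.0036 with DESeq2 size factors, 0.45 with library totals, 0.016 without a filter, 0.0025 with the DESeq2 Wald test, and -1.39 to 0.45 with 1 library left out) and PLIN1 (-0.12 to 0.16 with 1 library left out, and below 0 without lamb library 1 or fetal library 1). The cause was not tested. LEP had a value of -0.0035 as reported (adjusted p = 0.997) and PLIN1 of 0.06 (adjusted p = 0.835).

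With the replicate number as a block 5353 genes were called, and the same 4 members. Same-numbered samples had correlations of 0.003, -0.116 and 0.046, and differently numbered ones ran from -0.140 to 0.140. With 3 samples per stage these values cannot settle whether the numbers pair the animals. The promoter alternative was not run, since no promoter was analysed here. AHSP, EPOR, HEMGN, MB and GATA1 rest on few counts, which limits their ratios, and 3 animals per stage limit every test. The edgeR p-values set the stage difference against the spread between animals, moderated over all genes tested. They rest on these animals alone.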
